A study of Mus musculus with 6 samples.

Results

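The cytosolic ribosome is built from ribosomal RNA and a fixed set of small, mostly basic ribosomal proteins, named Rpl in the large subunit and Rps in the small one. Each assembled ribosome holds about a single copy of most of them, so their genes are transcribed strongly and at similar levels in nearly every cell type. Their mRNAs start with a stretch of pyrimidines, the terminal oligopyrimidine (TOP) motif, through which the kinase complex mTORC1 controls how well they are translated. Diphtheria toxin (DT) inactivates the elongation factor Eef2 in cells that carry a receptor for it and thereby stops translation in them. The question here was whether mRNAs of the ribosomal proteins differed in astrocytes of mice that had received DT.

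The ribosomal protein genes were taken by symbol, as Rpl or Rps followed by a number and at most a short suffix, plus *Rpsa*, *Rplp0*, *Rplp1* and *Rplp2*. Of 24421 genes listed, 84 qualified, 48 of the large subunit, 33 of the small subunit and 3 of the P stalk, the arm of the large subunit that recruits elongation factors. Among them, 7 carried a symbol ending in l or l1, which marks a paralog of another member. The rule left out 11 similar names, among them *Rpl36al* and 7 rows labelled as pseudogenes, and it missed *Fau*, which encodes a ribosomal protein as a fusion under another name.

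Hippocampal astrocytes came from C57BL/6 mice homozygous for the *Siglech* dtr allele, which places the DT receptor under control of the *Siglech* locus, active in microglia. Mice of both groups carried it, and *Siglech* itself is knocked down in homozygotes according to the study. Adult mice received PBS or DT at 50 µg/kg intraperitoneally, and cells were collected 2 days later on magnetic beads against the astrocyte antigen ACSA-2, after microglia had been depleted on beads against CD11b. Each group had 3 libraries from separate experiments, and the RNA of a library was pooled from 2 mice. No mice lacking the dtr allele were sequenced here, so an action of DT that does not need the receptor cannot be told apart from one that does.

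Libraries held 21704891 to 32933975 reads assigned to genes. Levels are given as TPM, which is scaled by transcript length and allows genes to be compared, and as CPM, which is not scaled by length. The CPM here are relative to library sizes adjusted by TMM, a scaling that takes most genes as unchanged between libraries. Both units are relative, so a change in total mRNA per cell would not show. Fewer cells of a type and less RNA per cell cannot be told apart. Of 9 cell type marker lists, the 10 astrocyte markers were the most abundant by far, summing to 32420 to 33400 TPM in PBS and 34450 to 37010 TPM in DT. All 10 microglial markers were lower in DT, 6 of them past the test described below, and their sum was 174.5 to 215.9 TPM in PBS against 94.0 to 109.8 TPM in DT, with no *Siglech* read in any DT library. All 6 tested markers of border-associated macrophages were higher in DT, 3 of them past the test, with a sum of 12.9 to 24.55 TPM against 57.5 to 77.6 TPM. Ependymal markers were all higher in DT (5 of 5, none past the test), with sums of 524 to 652 TPM against 699.6 to 1164 TPM. Endothelial markers were all lower (6 of 6, none past the test), with sums of 480 to 756 TPM against 396 to 468 TPM, as were those of oligodendrocyte precursors (4 of 4, none past the test), with 199 to 243 TPM against 165 to 181 TPM. The choroid plexus markers, 5 of 5 higher and none past the test, summed to 103.9 to 2020 TPM in PBS and 1246 to 3421 TPM in DT, with overlap. The part of these cells in the values below was not tested.

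The start of the mRNA is where the TOP motif lies, and these are windows around an annotated start of members described below. Sequences are from RefSeq on GRCm38.p6, 30 bases each, 15 before the start and 15 from it, written along the transcribed strand. Capitals mark an uninterrupted run of at least 7 pyrimidines that begins with C. *Rplp2* has the highest level, *Rps6* encodes the target of S6 kinase, *Rps27*, *Rpl35a* and *Rpl22l1* are among the members with the largest differences, and *Rps4x* is shown as a window without such a run. *Rpl35a* has further annotated starts, whose windows of this size hold no such run.
Rplp2, chr7:141447636-141447665, plus strand: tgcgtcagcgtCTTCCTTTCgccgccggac
Rps6, chr4:86857353-86857382, minus strand: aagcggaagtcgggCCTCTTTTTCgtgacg
Rps27, chr3:90213634-90213663, minus strand: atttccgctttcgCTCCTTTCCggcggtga
Rpl35a, chr16:33056467-33056496, plus strand: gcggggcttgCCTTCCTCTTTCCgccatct
Rpl22l1, chr3:28805493-28805522, plus strand: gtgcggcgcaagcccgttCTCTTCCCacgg
Rps4x, chrX:102189377-102189406, minus strand: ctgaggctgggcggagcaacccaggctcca

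Such a run lay within 50 bases of an annotated start in 54 of the 63 members for which a sequence was at hand, or 85.7%. Over all 27025 genes with a start sequence the share was 44.5%, and over 69 genes of the mitochondrial ribosome, which is built from a separate set of proteins, it was 42.0%. On the opposite strand, the run was present in 34.9% of the members and 47.5% of all genes. The letters CTTTCC, part of many of these runs and visible in *Rps27* and *Rpl35a* above, were found in the same window on the transcribed strand of 19 members, or 30.2%, against 5.43% of all genes. On the opposite strand CTTTCC was in 3.17% of the members and 5.12% of all genes. On the transcribed strand, members thus had such a run near an annotated start more often than all genes, a feature not used in selection by name. The window also covers bases before the start, outside the mRNA, and any annotated start of a gene counted. In *Rpl26*, *Rps7* and *Rpl5* the first run began at −49, −29 and −20, and the 30 bases around the start held none. The share is therefore not a count of mRNAs that start with the run. These matches are a description of letters in the window and not of use by any factor.

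Ribosomal protein mRNAs were among the most abundant in the astrocytes. Of the 84 members, 81 passed a filter of a mean of at least 0.5 CPM over the 6 libraries, and their median was 312 TPM against 22.3 TPM over all 15137 genes that passed. The median member stood at percentile 97.5 of those genes, and 71 members stood above percentile 90. Between 100 and 1000 TPM there were 68 of the 81, with 9 below and 4 above.

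Among the highest members were both small proteins of the P stalk. *Rplp2* measured 1158, 1232 and 1435 TPM in PBS replicates 1, 2 and 3 and 1325, 1297 and 1436 TPM in the DT replicates. *Rplp1* measured 942, 972 and 1106 TPM in PBS and 944, 1020.1 and 1256 TPM in DT. In both genes the groups overlapped, and *Rplp2* was above *Rplp1* in every library. *Rps23*, which lines the decoding site, was at 1079 ± 32.3 TPM in PBS and 992 ± 77.9 TPM in DT (mean ± SD, n = 3). *Rplp0*, the base of the P stalk and a common reference gene in qPCR, was far lower than its partners *Rplp1* and *Rplp2*, at 267 ± 12.4 TPM in PBS and 281 ± 8.19 TPM in DT. In the ribosome the stalk holds more copies of Rplp1 and Rplp2 than of Rplp0.

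**Figure D1:**
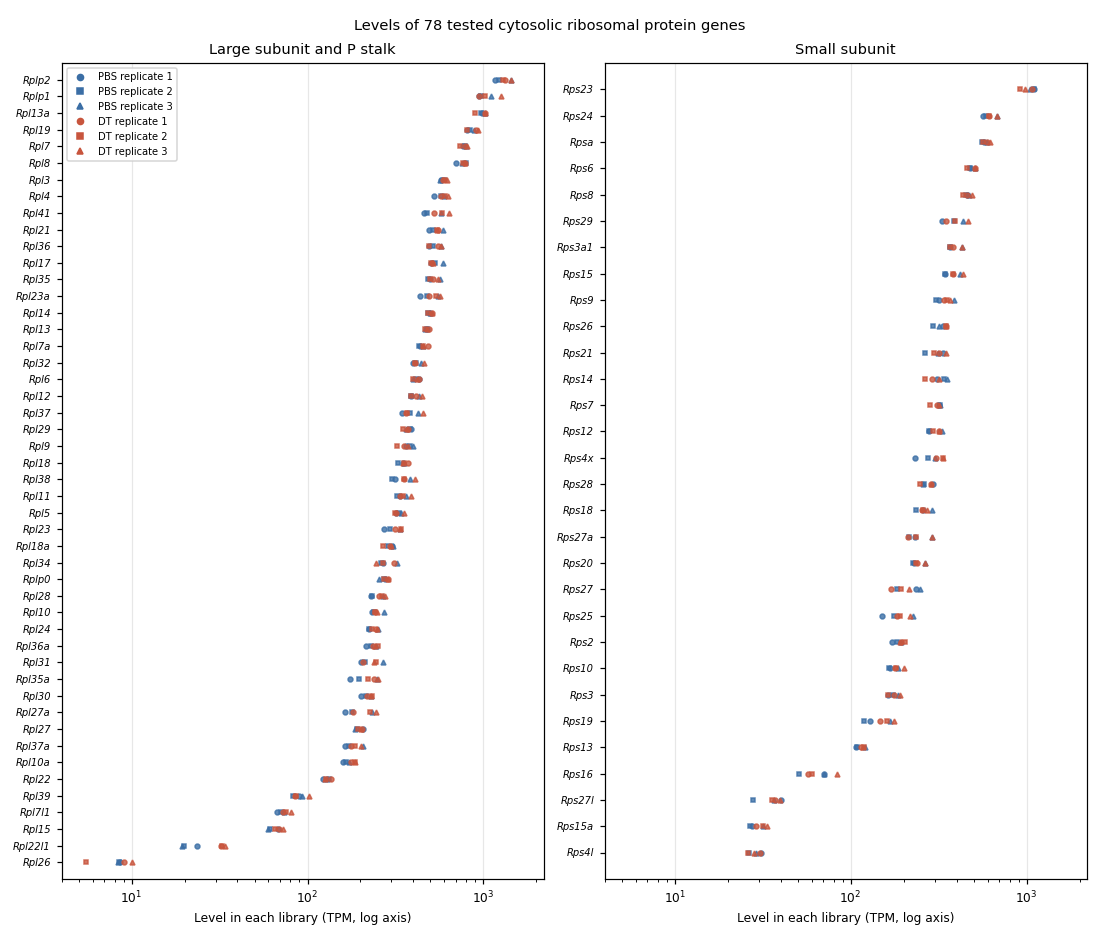
Level of 78 of the 81 tested ribosomal protein genes in each of the 6 libraries, in TPM on a log axis, with large-subunit and P stalk genes on the left, small-subunit genes on the right, PBS in blue, DT in red and a marker shape per replicate number. Most genes lie between 100 and 1000 TPM with the libraries close together, Rplp2 is the highest, Rpl26 the lowest at 5.53 to 10.01 TPM, and Rpl22l1 shows a gap between PBS and DT.

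At the low end, *Rpl26*, a large-subunit protein, measured 8.60, 8.51 and 8.42 TPM in PBS and 9.06, 5.53 and 10.01 TPM in DT, on only 31 to 52 reads per library. Every library was low, the groups overlapped, and the spread of this gene was the largest of all members, with an SD within groups of 0.32 on the log2 scale. It was the lowest of the tested members in each library. Of its coding 100-base stretches, 19.1% also occur in other annotated genes. Reads in the study were paired and longer than these stretches, so how many could not be placed was not tested. *Rps15a* had 46.2 to 57.7 CPM but only 26.8 to 33.4 TPM, which placed it at rank 78 of 84 per length.

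The 3 members that were not tested were all paralogs. *Rpl3l*, which replaces *Rpl3* in heart and skeletal muscle, had 2 to 20 reads per library. *Rpl39l*, known from the testis, had 1 read in PBS replicate 1 and none elsewhere. *Rpl10l*, a testis retrogene that stands in for X-linked *Rpl10* in male meiosis, had no read in any of the 6 libraries. The genes they are named after were well measured in DT and PBS, *Rpl3* at 606 ± 16.3 and 579 ± 16.5 TPM, *Rpl39* at 90.7 ± 9.38 and 88.2 ± 5.44 TPM and *Rpl10* at 245 ± 3.36 and 249 ± 20.7 TPM.

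None of the 81 tested members passed an adjusted p of 0.05 between DT and PBS (limma on log2(CPM + 0.1) with a variance trend, two-sided, Benjamini-Hochberg over all 15137 genes). Over all genes tested, 108 passed, or 0.713%, of which 84 were higher in DT (0.555%) and 24 lower (0.159%), so that none among 81 is near the background. The lowest adjusted p of a member was 0.231, for *Rpl22l1*. At an unadjusted p under 0.05 there were 3 members, *Rpl22l1*, *Rps4x* and *Rps14*, or 3.70%, against 10.4% of all genes. On the reads recovered from the CPM values, the quasi-likelihood test and the exact test of edgeR and DESeq2 also called none, with 3, 2 and 3 members at an unadjusted p under 0.05.

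Differences were small as well as not called. The median log2 fold change, DT over PBS, was 0.04 over the members, 0.04 in the large subunit, 0.04 in the small subunit and 0.07 in the P stalk, against −0.01 over all genes tested. It was under 0.1 in size in 55 of 81 members, under 0.25 in 79 and under 0.5 in 80, where the exception was *Rpl22l1*. The 95% interval of the difference lay within ±0.5 for 77 members and within ±0.25 for 40, which bounds what these libraries could have missed. For comparison, 8920 other genes lay between 12 and 274 CPM, the range from percentile 5 to percentile 95 of the members, while the values given for the members are over all 81. Their median difference in size was 0.083 against 0.054 for the members, 89.0% of them were under 0.25 against 97.5% of the members, and 69, or 0.774%, were called. The SD within groups had a similar median in those genes and in the members, 0.11 and 0.10 on the log2 scale.

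**Figure D2:**
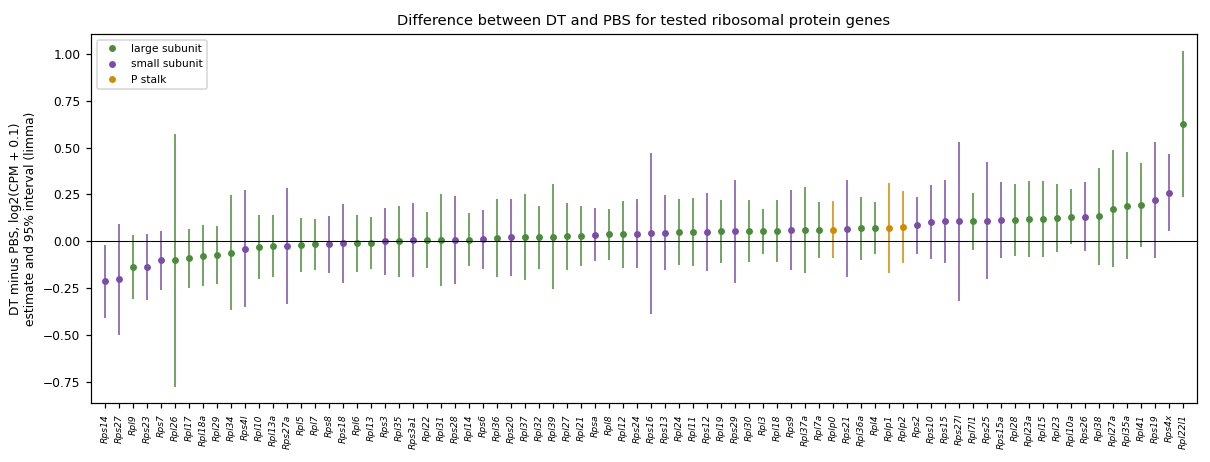
Difference between DT and PBS for 78 of the 81 tested ribosomal protein genes, as log2(CPM + 0.1) in DT minus PBS, with points for the estimate and bars for its 95% interval from limma, coloured by subunit. Estimates run from −0.22 for Rps14 to 0.63 for Rpl22l1, most bars cross 0, and the 3 P stalk genes lie between 0.06 and 0.08.

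The sign of these small differences was positive in 58 members and negative in 23. That is 71.6% positive, against 48.7% over all genes tested. Members are not independent of each other, since they rose and fell together from library to library as described further on. With each library left out in turn, 43 to 69 of the 81 signs were positive and the median was 0.0017 to 0.087, the lowest of both without PBS replicate 2. Summed over all 84 members, the level was 28077, 28545 and 31229 TPM in PBS and 29726, 29004 and 31612 TPM in DT. These sums were 2.81% to 3.17% of all TPM, the groups overlapped, and their means of 29284 ± 1701 and 30114 ± 1347 TPM differed by 2.83%, less than the spread between replicates.

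*Rpl22l1* had the largest difference of the members. It encodes a paralog of the large-subunit protein Rpl22 that can take its place in the ribosome, and the pair are known to regulate each other and to bind RNA outside it. Its gene lies at chr3:28805436-28807424 on the plus strand (mm10, GENCODE M21). It measured 23.6, 19.9 and 19.4 TPM in PBS and 32.1, 32.5 and 33.8 TPM in DT, on 69 to 106 reads in PBS and 122 to 159 in DT. Every DT library was above every PBS library, and the DT libraries lay close together. The log2 fold change was 0.63 ± 0.17 (SE, 95% interval 0.24 to 1.01), a fold of 1.54, with an adjusted p of 0.231 in limma. On TPM instead of CPM the same model gave 0.65 with an adjusted p of 0.0390, which is past the threshold, as for 0.628% of all genes on that scale. Over all 18 alternatives its log2 fold change was 0.52 to 0.72 and its adjusted p 0.0390 to 0.607. Of its coding 100-base stretches, 34.3% are shared with 1 other gene, *Gm15421*, so reads of the pair may have been split between them.

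*Rpl22* itself stayed level, at 122, 132 and 129 TPM in PBS and 135, 127 and 125 TPM in DT, with overlapping groups and a log2 fold change of 0.01 (95% interval −0.15 to 0.16). As a percent of *Rpl22* in TPM, *Rpl22l1* was 16.5 ± 2.48 in PBS, with libraries from 15.1 to 19.4, and 25.4 ± 1.58 in DT, with libraries from 23.8 to 26.9. The ratio therefore separated the groups as the level of *Rpl22l1* did. Its place among the low members moved too, since it was below *Rps4l* in each PBS library and above it in each DT library.

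In the other tested paralogs the levels in TPM overlapped between groups. *Rpl7l1*, which acts in assembly of the large subunit, measured 67.2, 70.5 and 73.2 TPM in PBS and 72.9, 75.5 and 80.8 TPM in DT, and was 9.01 ± 0.218 percent of *Rpl7* in PBS and 9.82 ± 0.528 percent in DT. In CPM its groups did not overlap, whereas in TPM DT replicate 1 fell just below PBS replicate 3, and the log2 fold change of 0.11 had a limma adjusted p of 0.636. *Rps27l*, a target of p53, measured 40.3, 27.7 and 36.8 TPM in PBS and 37.3, 35.7 and 39.9 TPM in DT. Its groups overlapped, and PBS replicate 2 was the low library. Against *Rps27* it was 15.7 ± 1.22 percent in PBS and 19.7 ± 1.99 percent in DT, where the libraries did not overlap, and the *Rps27* values are given below. *Rps27* shares 40.1% of its coding 100-base stretches with other genes, most with its copy *Rps27rt*. That copy was at 703 ± 65.6 TPM in PBS and 713 ± 64.1 TPM in DT. This ratio therefore rests on how reads were divided between *Rps27* and its copy, which was not tested. *Rps4l*, an autosomal copy of X-linked *Rps4x* at chr6:148354656-148355598, measured 30.8, 26.4 and 29.1 TPM in PBS and 30.4, 26.1 and 28.1 TPM in DT, nearly the same in both groups. It had no coding transcript in the annotation used, so the stretches it shares with other genes were not counted.

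**Figure D3:**
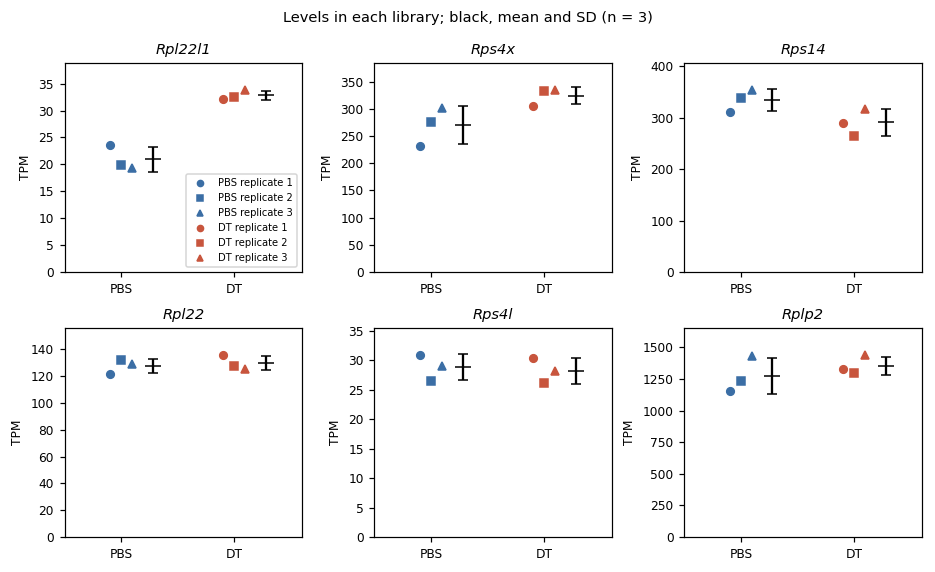
TPM of Rpl22l1, Rps4x, Rps14, Rpl22, Rps4l and Rplp2 in each of 6 libraries, a marker shape per replicate number, with the mean and SD of 3 libraries in black and each axis starting at 0. Rpl22l1 separates at 19.4 to 23.6 in PBS against 32.1 to 33.8 in DT, Rps4x separates by a narrow gap, and Rps14, Rpl22, Rps4l and Rplp2 overlap between groups.

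*Rps4x*, a small-subunit protein at chrX:102184941-102189394 on the minus strand, measured 233, 276 and 301 TPM in PBS and 306, 333 and 334 TPM in DT. The DT libraries were all above the PBS libraries, but only narrowly, since DT replicate 1 and PBS replicate 3 nearly met. The log2 fold change was 0.26 ± 0.09 (SE, 95% interval 0.06 to 0.46), with an unadjusted p of 0.0186 and an adjusted p of 0.374 in limma. The other X-linked members, *Rpl10*, *Rpl36a* and *Rpl39*, overlapped between groups.

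*Rps14*, a small-subunit protein known for its loss in a form of myelodysplastic syndrome, was the lowest by fold change. It measured 311, 338 and 353 TPM in PBS and 290, 265 and 317 TPM in DT, so that DT replicate 3 lay above PBS replicate 1. In CPM the values were 64.6, 67.7 and 71.8 against 59.9, 52.7 and 63.7, and the groups did not overlap, by less than 1 CPM. The log2 fold change was −0.22 ± 0.09 (SE, 95% interval −0.41 to −0.02), with an adjusted p of 0.438 in limma.

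Groups without overlap in CPM were found in 7 of 81 members, or 8.64%, against 16.3% of all genes. DT was above PBS in 4, *Rpl22l1*, *Rps4x*, *Rpl10a* and *Rpl7l1*, where 8.75% of all genes were so, and below it in 3, *Rps14*, *Rpl9* and *Rps7*, where 7.57% were. Both shares among members were under the background. *Rpl10a*, a protein of the large subunit's movable stalk, had the smallest spread of any member, with 46.0, 46.4 and 48.6 CPM in PBS and 50.9, 51.6 and 51.9 CPM in DT, and a log2 fold change of 0.13 with a limma adjusted p of 0.532. *Rps7*, an inhibitor of Mdm2 when free of the ribosome, had 106, 105 and 105 CPM in PBS and 103, 90.01 and 103 CPM in DT. DT replicate 2 was the low library, and the other DT libraries lay just below PBS.

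Other members at either end of the order did not pass the test. *Rps19*, mutated in Diamond-Blackfan anaemia, measured 128, 119 and 168 TPM in PBS and 147, 160 and 178 TPM in DT (log2 fold change 0.22). *Rpl41*, the smallest ribosomal protein, measured 462, 480 and 573 TPM in PBS and 525, 580 and 639 TPM in DT (0.19). *Rpl35a*, a large-subunit protein, measured 174, 197 and 248 TPM in PBS and 238, 221 and 251 TPM in DT (0.19). In all of them PBS replicate 3 was the high PBS library and overlapped with DT. At the lower end, *Rps27* measured 236, 183 and 247 TPM in PBS and 170, 193 and 214 TPM in DT (−0.20), *Rpl9* was 382 ± 18.1 against 350 ± 24.7 TPM (−0.14) and *Rps23* stood at −0.14. Limma adjusted p of these 6 genes was 0.537 or more. The value of *Rps27* has the limit given above, since it shares stretches with *Rps27rt*.

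Several further members have a known role outside the ribosome or a regulated state. *Rps6*, whose protein is phosphorylated by S6 kinase, measured 477, 478 and 506 TPM in PBS and 512, 461 and 512 TPM in DT. *Rpsa*, also known as a laminin receptor, measured 572, 561 and 595 TPM in PBS and 597, 568 and 623 TPM in DT. The groups overlapped in both, with log2 fold changes of 0.01 and 0.04. *Rpl5* and *Rpl11*, which with ribosomal RNA bind Mdm2 and stabilise p53 when ribosome assembly fails, were at 330 ± 11.4 and 341 ± 21.4 TPM in PBS and 328 ± 20.2 and 356 ± 27.2 TPM in DT. *Rps27a*, made as a fusion with ubiquitin, was at 246 ± 39.0 and 246 ± 40.9 TPM. *Rps3*, a protein at the mRNA entry site with a described role in DNA repair, was at 175 ± 11.1 and 176 ± 13.5 TPM, and *Rpl13a*, part of an interferon-gamma dependent repressor of translation, was at 986 ± 26.0 and 978 ± 67.2 TPM. The groups overlapped in all of these.

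Members moved together between libraries more than they differed between groups. As a deviation from the gene's mean over 6 libraries on the log2 scale, the median member stood at −0.04, −0.09 and 0.07 in PBS replicates 1, 2 and 3 and at 0.03, −0.05 and 0.08 in the DT replicates. Over all genes tested the corresponding medians were within 0.01 of 0. The TMM scaling of CPM takes most genes as unchanged, so medians near 0 over all genes are in large part set by it. Within the PBS group, replicate 3 was the highest library for 58 of 81 members (71.6%, against 33.1% of all genes), and within the DT group, replicate 3 was the highest for 48 (59.3%, against 34.6%). Both held for 40 members, or 49.4%, against 14.8% of all genes. The libraries numbered 3 were thus high and those numbered 2 low in both groups. Within each group, the library numbered 2 held the most reads, 32933975 in PBS and 30339811 in DT. The library numbered 3 held the fewest, 21704891 in PBS and 22478808 in DT. The part of depth in this pattern was not tested. The labels give no batch by which to compare the libraries, and with both libraries numbered 3 left out the median log2 fold change was 0.04 and no member was called.

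**Figure D4:**
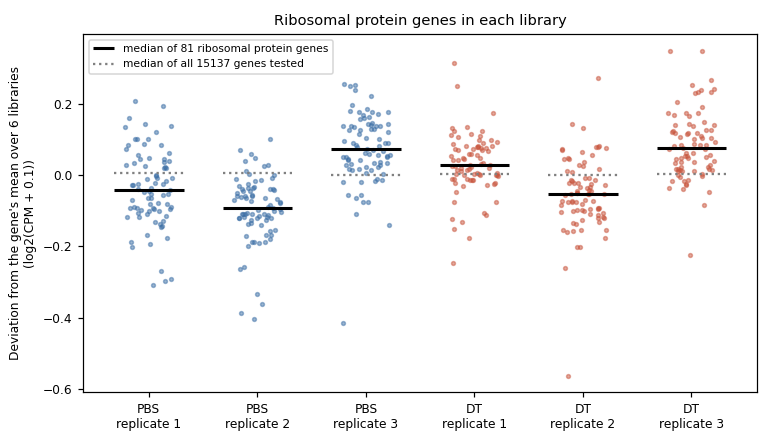
Deviation of each of the 81 tested ribosomal protein genes from its own mean over the 6 libraries, in log2(CPM + 0.1) units, 1 column of points per library, with the members' median as a solid line and the median of all 15137 genes as a dotted line. Solid lines lie at −0.04, −0.09 and 0.07 in PBS and 0.03, −0.05 and 0.08 in DT, while the dotted lines stay near 0, which the TMM scaling of CPM favours.

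Other short mRNAs moved in the same direction. The longest annotated coding transcript of a member had a median of 925.5 bases against 3228 over all genes tested, and 46 members had at most 1000 bases. Of 275 other genes of at most 1000 bases and at least 10 CPM, the highest library was replicate 3 in 53.8% within PBS, in 42.2% within DT and in 25.1% within both. Of 9234 other genes over 1000 bases and at least 10 CPM these shares were 29.2%, 31.4% and 13.1%. The shares of the members given above were higher than those of the short genes. They were over all 81 tested members, of any length and without the limit of 10 CPM, so the sets are not matched. The part of transcript length in this pattern was not tested.

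Ribosomal protein genes have many processed pseudogenes, which can limit how exactly a read is placed. Reads in the study were paired and longer than 100 bases, so a shared stretch does not by itself leave a read unplaced. Of 80 tested members with an annotated coding transcript, 75 shared at least 1 of their 100-base stretches with another gene, with a median share of 23.3%, and the gene sharing most was a pseudogene for 60. The remaining 5 shared none, among them *Rpl22*, *Rps27l* and *Rps3*. More than 50 percent was shared in 16 members, among them *Rps6* with 83.6% and *Rpl3* with 59.9%. Levels of the members therefore hold some uncertainty about reads given to, or taken from, their copies. The median log2 fold change was 0.05 in those 16 members and 0.04 in the other 64, so the near absence of a difference held in both sets, and no member of either was called. Median levels were 457 TPM in the 16 and 295 TPM in the 64. Across tested members, Spearman's rho was 0.29 between mean TPM and the share and −0.12 between fold change and the share, as a description over genes that share their libraries.

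**Figure D5:**
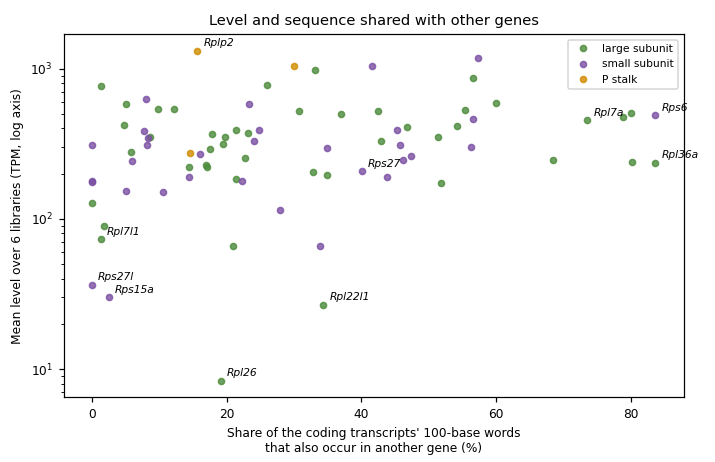
Share of the coding 100-base stretches of each of 80 tested members that also occur in another annotated gene, in percent on the horizontal axis, against the mean level over 6 libraries, in TPM on a log axis, 1 point per gene coloured by subunit. Shares run from 0 for Rps27l and 4 others to 83.6% for both Rpl36a and Rps6, high levels occur at low and high shares, as for Rplp2 at 15.7%, and the lowest member, Rpl26, has a share of 19.1%.

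Genes that work with the ribosomal proteins were read from 7 lists, and none of their tested genes was called in limma, against 0.713% of all genes. Other TOP mRNAs numbered 20 tested, with 15 higher and 5 lower in DT, 1 at an unadjusted p under 0.05 and a median log2 fold change of 0.07. They ran from *Eif3f*, an initiation factor subunit, at −0.13 to *Snhg1*, a host gene of small nucleolar RNAs, at 0.35. *Eef2*, the target of the toxin, was 652, 661 and 663 TPM in PBS and 650, 659 and 661 TPM in DT, level in all 6 libraries. *Fau* was 456 ± 63.2 and 455 ± 31.3 TPM and *Rpl36al* 135 ± 16.3 and 145 ± 18.7 TPM in PBS and DT. These ribosomal proteins outside the naming rule thus overlapped between groups as well.

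Of 37 initiation and elongation factors, 24 were higher and 13 lower, with a median of 0.06 and 3 at an unadjusted p under 0.05. *Eef2k*, the kinase that inhibits Eef2, was 27.8, 30.7 and 31.6 TPM in PBS and 35.4, 35.3 and 36.0 TPM in DT, without overlap, with a log2 fold change of 0.23 and a limma adjusted p of 0.261. *Eif4ebp2*, a repressor of cap-dependent initiation, was the lowest at −0.14. Among the ribosome biogenesis genes 35 of 44 had higher values, or 79.5% against 48.7% of all genes, and 9 lower ones, at a median of 0.07, with 4 at an unadjusted p under 0.05. The groups did not overlap in 13 of them, or 29.5% against 16.3% of all genes, with DT above PBS in 11 and below it in 2. *Nop16*, a nucleolar assembly factor, was the highest at 0.45, with 9.73 to 11.7 TPM in PBS and 12.9 to 16.8 TPM in DT. *Ubtf*, which activates transcription of ribosomal RNA genes, was the lowest, with 88.9, 88.7 and 86.3 TPM in PBS and 75.3, 74.0 and 70.8 TPM in DT. Its groups were clearly apart, at a log2 fold change of −0.28 and an adjusted p of 0.113 in limma, and DESeq2 on recovered reads called it at 0.0142 (range over alternatives 0.0142 to 0.396). DESeq2 called 325 of all 15137 genes, against 108 in limma.

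In the integrated stress response, the program that blocked initiation turns on, higher values in DT were found for 11 of 24 tested genes and lower ones for 13, at a median of −0.01, and 4 at an unadjusted p under 0.05. *Cebpb*, a transcription factor, was 19.4, 2.74 and 2.09 TPM in PBS and 29.9, 39.7 and 37.7 TPM in DT. PBS replicate 1 stood far above the other PBS libraries and below all DT libraries. Its log2 fold change was 2.73 with a limma adjusted p of 0.181, and without PBS replicate 1 it was 3.68 with an adjusted p of 0.000414, in a range over alternatives up to 0.627. The fit without PBS replicate 1 called 83 of all 15137 genes. *Atf3*, a stress-induced transcription factor, was the lowest of the list at −0.52. In the mTORC1 and S6 kinase list, 13 of 21 were higher and 8 lower, with a median of 0.02, from *Rps6kb2*, an S6 kinase, at −0.24 to *Rraga*, a GTPase that recruits mTORC1 to lysosomes, at 0.16, and none was at an unadjusted p under 0.05. In the ribosome quality control list, 5 of 13 were higher and 8 lower, with a median of −0.06 and 1 at an unadjusted p under 0.05, from *Ankzf1*, which frees stalled peptides, at −0.15 to *Usp10*, a deubiquitinase of stalled small subunits, at 0.24.

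The mitochondrial ribosomal protein genes, made in the same cells for a separate ribosome, stood at a median log2 fold change of 0.02 over 77 tested, with 41 higher, 36 lower and 1 at an unadjusted p under 0.05. Their sum was 4179 ± 52.3 TPM in PBS and 4273 ± 25.8 TPM in DT, without overlap, whereas in CPM the sums overlapped and differed by 0.128%. Replicate 3 was the highest library in 32.5% of them within PBS and in 32.5% within DT, unlike the cytosolic members. *Mrps6*, of the mitochondrial small subunit, was 49.9, 67.6 and 61.0 TPM in PBS and 98.8, 89.6 and 88.0 TPM in DT. All DT libraries were well above all PBS libraries, with a log2 fold change of 0.62 and an adjusted p of 0.0866 in limma. The exact test of edgeR and DESeq2 on recovered reads called it, at adjusted p of 0.00554 and 0.00195, the latter the lowest over alternatives and 0.323 the highest. Of all 15137 genes, the exact test called 263 and DESeq2 325, against 108 in limma. *Mrpl53* was the lowest at −0.36, on 12.2 to 23.5 TPM in PBS and 12.1 to 15.9 TPM in DT.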

How the data were processed

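RNA from 6 libraries was made with a stranded SMARTer kit. Per the study's methods and the submitters' processing notes, the authors trimmed reads with Trim Galore 0.5.0, mapped them to mm10 with HISAT2 2.1.0, removed ribosomal RNA reads with bedtools 2.25.0, quantified genes with StringTie 1.3.5 and used edgeR 3.24.3. The authors deposited CPM and TPM per gene and library. The deposited p-value, q-value and log2 fold change columns hold their own comparison and were not used. The deposited CPM is a signal relative to TMM-scaled library sizes (columns sum to 980428 to 1026170), where the design had assumed plain CPM. Its steps gave whole reads for 100% of values at a tolerance of 0.05 reads. Dates stood in place of 27 gene names.

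The members and all lists were chosen with earlier results of these data known. Named genes were every member past an adjusted p of 0.05, the 5 highest and 5 lowest by fold change, the 3 highest and 3 lowest by level, paralogs and their partners, members with separate roles, the ends of each list, and *Eef2*, *Fau* and *Rpl36al*. Some genes that the rule names are not reported here. *Rps7*, *Rpl10a*, *Rps15a* and members named for shared stretches were added after their values were seen.

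Genes averaging 0.5 CPM or more entered a limma 3.58.1 fit (R 4.3.3) of log2(CPM + 0.1). The fit was also run on simulated counts with the same dispersion in every gene and no shift shared by genes of a library. That setting differs from these data, so it gives no measure of how the fit performed here. Alternatives were pseudocounts of 0.5 and 1, no filter, a minimum of 2 CPM on average, quantile normalization, TPM in place of CPM, a fit without the variance trend, a replicate block, each library left out, edgeR 4.0.16, DESeq2 1.42.0 and, chosen after seeing the data, both libraries numbered 3 left out. With 3 libraries a group, an exact permutation test cannot go below p = 0.10. Whether pooled libraries vary like single animals was not tested. Positions and 100-base stretches are from GENCODE M21 (mm10) and start sequences from RefSeq (GRCm38.p6).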

Additional observations from a re-analysis of the deposited data

How the results depend on the processing

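No tested ribosomal protein gene was called under any alternative except on TPM, where 1 was (*Rpl22l1*), and leaving out each library in turn gave 0 to 0 called. The members' median log2 fold change was 0.0017 to 0.087 with each library left out, positive throughout. All genes called numbered 108, against 6 without the filter on low values, 46 without the variance trend, 263 with edgeR's exact test (191 higher, 72 lower), 325 with DESeq2 (227 higher, 98 lower), 58 without both libraries numbered 3 and 50 to 83 with each library left out. The cause was not tested. With the replicate block, 109 genes and no member were called, and 6 members were at an unadjusted p under 0.05 in limma. Deviations of same-numbered libraries correlated at 0.115, 0.0105 and 0.118 over all genes, against −0.124 to 0.0115 for libraries of unlike number. Over the members they correlated at 0.340, −0.0339 and 0.337, against −0.583 to 0.320. Libraries numbered 1 and 3 thus correlated most with their own number, and those numbered 2 did not. Deviations here were from the mean of the group, which ties these correlations to each other. A shift shared by all members of a library does not enter a correlation. The low level of the members in both libraries numbered 2 therefore cannot show in these values. The labels do not say whether the numbers pair the libraries, so the block was kept as an alternative only. The list counts of 0 became 1 with DESeq2 in ribosome biogenesis (44 tested) and in the mitochondrial ribosomal proteins (77 tested), and 1 with edgeR's exact test in the latter. In the integrated stress response (24 tested) the count became 1 without PBS replicate 1, and the range was 0 to 1. Of all 15137 genes, these settings called 325, 263 and 83, so single calls in the lists are no result about them.

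Of results for 45 named genes, 763 kept direction and side of the threshold, 5 passed it and 41 changed sign, none of the last past the threshold. *Rps3* was 0.012 on TPM, 0.021 with quantile normalization, 0.0035 and 0.0034 with edgeR's quasi-likelihood and exact tests and 0.0020 with DESeq2. *Rps27a* was 0.00028 on TPM and *Fau* 0.0033. With quantile normalization *Rpl39* was −0.016, *Eef2* 0.0044 and *Fau* 0.011. Without both libraries numbered 3, *Rpl10* was 0.028, *Rpl39* −0.018 and *Fau* 0.048. With each library left out, log2 fold changes ran from −0.25 to 0.16 for *Rpl26*, −0.11 to 0.028 for *Rps4l*, −0.042 to 0.14 for *Rplp1*, −0.060 to 0.23 for *Rps27l*, −0.044 to 0.033 for *Rpl7*, −0.067 to 0.036 for *Rpl10*, −0.049 to 0.035 for *Rpl22*, −0.055 to 0.073 for *Rpl39*, −0.032 to 0.072 for *Rps6*, −0.068 to 0.019 for *Rpl5*, −0.0077 to 0.098 for *Rpl11*, −0.15 to 0.094 for *Rps27a*, −0.053 to 0.065 for *Rps3*, −0.071 to 0.044 for *Rpl13a*, −0.28 to 0.022 for *Eif4ebp2*, −0.080 to 0.098 for *Fau* and −0.0053 to 0.16 for *Rpl36al*. Among the members, read counts were lowest in *Rpl26*, *Rpl22l1* and the 3 untested paralogs, and the part of depth in their results was not tested.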

Other observations

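Rows with similar names that the rule left out held reads as well. *Rps27rt*, a retrocopy that shares coding stretches with *Rps27*, measured 664, 667 and 779 TPM in PBS and 650, 709 and 778 TPM in DT, above *Rps27* in every library, with overlapping groups. *Rpl37rt* measured 42.4, 44.7 and 69.3 TPM in PBS and 45.3, 59.8 and 74.2 TPM in DT, and PBS replicate 3 was the high PBS library here too. *Rpl34-ps1*, labelled as a pseudogene, reached 253 ± 9.97 TPM in PBS and 252 ± 12.2 TPM in DT. The other rows with a pseudogene label held fewer reads, and *Rplp2-ps1* had 62 to 139 reads per library and *Rps15a-ps4* 3 to 12. How reads were divided between these copies and the members was not tested.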
